A study of Homo sapiens with 2 samples.

Results

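The transcripts described here encode the CDK inhibitors, the D cyclins and the kinases CDK4 and CDK6, which together set the pace of the G1 phase of the cell cycle. The 10 genes were listed by symbol (CDKN1A, CDKN1B, CDKN1C, CDKN2C, CDKN2D, CCND1, CCND2, CCND3, CDK4 and CDK6), and all 10 were found by Ensembl ID among the 63677 gene IDs of the count tables. RNA sequencing was done on MDA-MB-231 cells, an established line from a human breast cancer that lacks the hormone receptors and HER2 amplification (triple-negative). 1 library came from cells given a plant extract, Carpesium cernuum extract (CCE), for which the protocol states 1 µg/mL for 24 h, and 1 library came from control cells of the same line. The protocol text with the CCE treatment stands on both samples, so the groups rest on the treatment label alone, and whether the control cells received a vehicle is not stated. Both libraries are total RNA of a whole culture, so a smaller share of cells expressing a gene and less RNA of it per cell cannot be told apart.

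D cyclins bind CDK4 or CDK6, and the active pair phosphorylates the retinoblastoma protein, which frees E2F factors to transcribe the genes of DNA replication. INK4 inhibitors (here CDKN2C, which encodes p18, and CDKN2D, which encodes p19) bind CDK4 and CDK6 themselves. CIP/KIP inhibitors (CDKN1A, CDKN1B and CDKN1C, which encode p21, p27 and p57) act mainly on CDK2 with cyclin E or A, and also bind D cyclin complexes. In breast cancer, cyclin D1 is often overproduced, CDK4 and CDK6 are drug targets, and MDA-MB-231 is known to carry a deletion at the CDKN2A and CDKN2B locus.

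The CCE library held 34884501 counts on genes and the control library 5633569, a 6.19-fold difference in depth. A count was worth 0.0287 counts per 1000000 counts on genes (CPM) in the CCE library and 0.178 CPM in the control library. Each condition has 1 library, so no replicate error is known and the treatment was not tested. Ratios are CCE over control, from counts scaled to each library's total on genes, with exact 95% Clopper-Pearson intervals. These intervals and the limits given for 0 counts cover counting error only, not the spread between cultures, and copies made by PCR count as if independent. Of the markers fixed for the line, VIM, CD44, MSN, AXL and CAV1 lay between 159.7 and 1824 CPM in the CCE library and between 335 and 3690 CPM in the control library. Of these 5, VIM, CAV1 and AXL were at least 1.5-fold lower in the CCE library (log2 ratios -1.02, -1.07 and -0.91). ESR1 had 0 counts in both libraries, PGR had 6 and 0, CDH1 1 and 0, and ERBB2 stood at 52.5 CPM in the CCE library and 54.7 CPM in the control library. The epithelial markers EPCAM and GATA3 had 7.60 and 1.89 CPM in the CCE library, against 9.94 and 1.78 CPM in the control library. Among markers of leukocytes, endothelium and muscle, DES had 0 counts in both libraries. CD3E had 0 and 1 count, VWF 2 and 0 and PTPRC 11 and 2, in the CCE and control libraries in that order, while MYH11 had 5.28 CPM in the CCE library and 7.81 CPM in the control library and PECAM1 was not matched.

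In the CCE library both INK4 genes and cyclin D1 were at least 1.5-fold lower than in the control library, and CDKN1A lay above it. By counts, CDKN2D was lowest at a log2 ratio of -1.07 (95% counting interval -1.29 to -0.84). CDKN2C followed at -0.80 (-1.13 to -0.46) and CCND1 at -0.67 (-0.72 to -0.61). CCND3 and CDK4 were lower by less than 1.5-fold, and the intervals of CDKN1C and CDK6 spanned no difference. CDKN1A had 0.51 (0.43 to 0.60), while CDKN1B, of the same CIP/KIP class, had -0.29 (-0.57 to -0.01).

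Genes with a mean over both libraries of 1 CPM or more were taken as measured, which 9 of the 10 were, CCND2 being the exception. A call of 1.5-fold or 2-fold needed a ratio past that fold and a counting interval that excluded 1. Of the 9 measured genes, 3 were called at least 1.5-fold lower, where 9.9% of 11635 measured protein-coding genes were. 0 of the 9 were called at least 1.5-fold higher, where 13.1% of protein-coding genes were. At 2-fold, 1 of the 9 was lower (CDKN2D; 3.93% of protein-coding genes) and 0 were higher (3.64%). The counting interval lay below 1 for 6 of the 9 genes (24.3% of protein-coding genes) and above 1 for CDKN1A alone (35.7%). The width of an interval depends on the counts, and the protein-coding genes were not matched to the 9 by count. The median log2 ratio of the 9 genes was -0.40, against a median of 0.09 over the protein-coding genes. The calls over all protein-coding genes were 1523 higher and 1152 lower, and with upper-quartile scaling 1140 higher and 1437 lower.

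**Figure D1:**
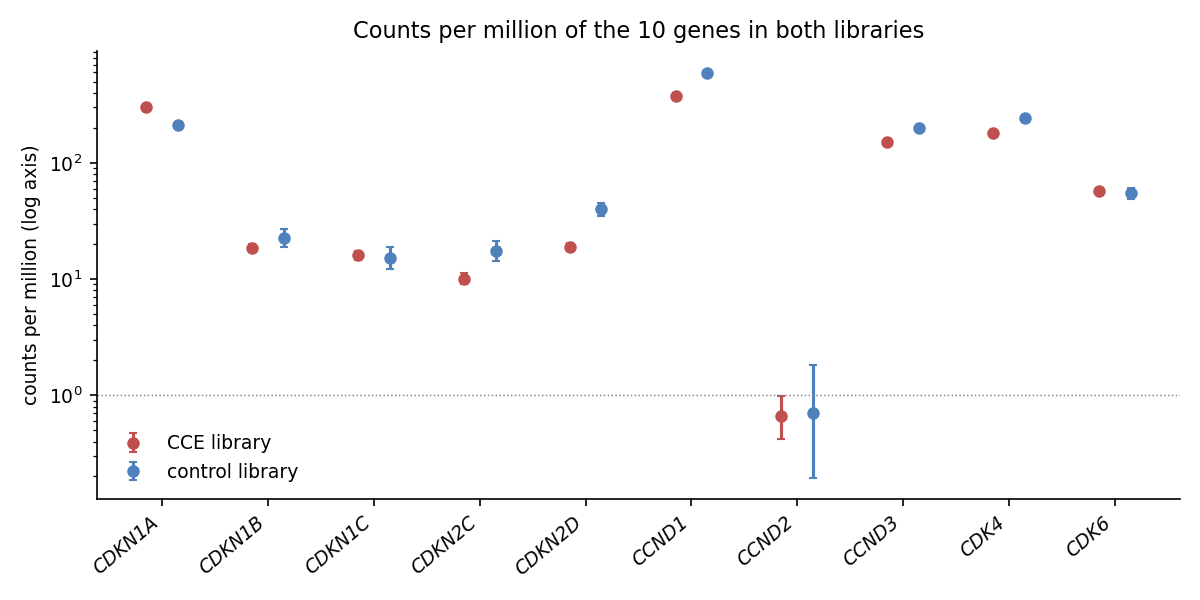
CPM (log axis) of each of the 10 genes in the CCE library (red, left) and the control library (blue, right), with exact 95% Poisson counting intervals. The dotted line marks 1 CPM, under which CCND2 lay in both libraries; CDKN1A is the only gene whose CCE point lies clear above its control point.

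CDKN1A encodes p21, an inhibitor that many stress signals induce. It lies on chromosome 6 from 36644237 to 36655114 (GRCh37, plus strand). It had 10463 counts in the CCE library and 1184 in the control library, which is 299.9 CPM (95% Poisson interval 294 to 306) in the CCE library and 210.2 CPM (198 to 222) in the control library. The CCE value was 1.43-fold higher (1.34 to 1.52), and the 2 intervals did not overlap. Of all measured protein-coding genes, 82.0% had a ratio at or below that of CDKN1A, so many genes differed more. The authors' FPKM, summed over the rows of the gene, was 89.1 in the CCE library and 77.7 in the control library, a smaller difference in the same direction (0.20 on the log2(FPKM + 1) scale).

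CDKN1B encodes p27, an inhibitor regulated to a large extent by protein turnover, and lies on chromosome 12 from 12838432 to 12875303. It had 642 counts (18.4 CPM) in the CCE library and 127 (22.5 CPM) in the control library, a log2 ratio of -0.29 whose interval (-0.57 to -0.01) only just excluded 0. CDKN1C encodes p57, an imprinted inhibitor, and lies on chromosome 11 from 2904443 to 2907005. It had 558 counts (16.0 CPM) in the CCE library and 86 (15.3 CPM) in the control library. Its log2 ratio of 0.07 was not distinguishable from 0 at this depth (-0.26 to 0.41). The intervals of CDKN1B and CDKN1C overlapped, both below that of CDKN1A, and by log2(FPKM + 1) CDKN1B had -0.50 and CDKN1C -0.17.

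Both INK4 genes that this line transcribes were lower. CDKN2D, which encodes p19, lies on chromosome 19 from 10677136 to 10679735 (minus strand). It had 662 counts in the CCE library and 224 in the control library, or 19.0 CPM (17.6 to 20.5) in the CCE library and 39.8 CPM (34.7 to 45.3) in the control library. By counts it was 2.10-fold lower in the CCE library (1.79 to 2.44), and only 3.38% of measured protein-coding genes had a ratio at or below it. By log2(FPKM + 1) CDKN2D had -0.67, CDKN2C -0.86 and CCND1 -0.80, so CDKN2D was not the lowest by FPKM. CDKN2C, which encodes p18 and is itself a known E2F target, lies on chromosome 1 from 51426417 to 51440306. It had 352 counts (10.1 CPM) in the CCE library and 99 (17.6 CPM) in the control library, 1.74-fold lower in the CCE library (1.38 to 2.18). The other 2 INK4 genes, CDKN2A (p16) and CDKN2B (p15) on chromosome 9, had 0 counts in both libraries. A floor of 3 counts allows up to 0.0860 CPM in the CCE library and 0.533 CPM in the control library.

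By counts, CDKN1A, the one gene whose counting interval lay above 1, and CDKN2D, the lowest, mark the ends of the range. The intervals of CDKN2D and CDKN2C overlapped. The promoters of CDKN1A and CDKN2D are shown for their place at these ends. Each is the 250 bases before the gene's start in RefSeq (build GRCh38.p14), 5′ to 3′ on the gene's strand, at chr6:36678464-36678713 (plus) for CDKN1A and chr19:10568980-10569229 (minus) for CDKN2D. Capitals mark GC boxes, the letters GGGCGG on either strand, to which SP1 family factors are known to bind.
CDKN1A: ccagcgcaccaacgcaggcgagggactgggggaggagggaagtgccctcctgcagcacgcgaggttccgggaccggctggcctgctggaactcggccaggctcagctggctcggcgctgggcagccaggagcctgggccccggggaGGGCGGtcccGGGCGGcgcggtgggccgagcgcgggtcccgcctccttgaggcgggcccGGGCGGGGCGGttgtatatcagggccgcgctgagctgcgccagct
CDKN2D: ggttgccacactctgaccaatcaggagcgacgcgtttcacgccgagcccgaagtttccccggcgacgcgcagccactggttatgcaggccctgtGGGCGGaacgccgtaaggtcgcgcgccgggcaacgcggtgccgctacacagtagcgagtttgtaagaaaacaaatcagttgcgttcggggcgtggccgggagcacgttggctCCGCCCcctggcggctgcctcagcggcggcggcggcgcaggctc

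The CDKN1A window holds 4 GC boxes, the last 2 of which overlap at 45 and 40 bases before the start, and the CDKN2D window holds 2. GC boxes are common: 42.6% of the 35116 windows of this length in the table hold at least 1, and so do 9 of the 12 windows of the 7 genes found there. CDKN1C, CCND1 and CCND2 were not matched. On both strands, the E box CACGTG occurred in 3 of the 12 windows, 1 of CDK4 and 2 of CDKN2C (6.34% of all windows). The core of the antioxidant response element, TGACNNNGC, to which NRF2 with a small MAF protein is known to bind, occurred in those of CDKN1B and CDK4 (10.9% of all windows). The TATA box TATAAA (10.7%), the E2F sites TTTCCCGC (1.39%) and TTTGGCGC (0.550%), the CRE TGACGTCA (1.65%) and the FOXO site GTAAACA (2.98%) had 0 matches in the 12 windows. GC boxes thus stood in windows of both the higher and the lower genes, and these matches are letters only.

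Among the D cyclins, which couple growth signals to CDK4 and CDK6, CCND1 carried most counts. CCND1 lies on chromosome 11 from 69455924 to 69469242 and had 13066 counts in the CCE library and 3354 in the control library. That is 374.6 CPM (368 to 381) in the CCE library and 595 CPM (575 to 616) in the control library, 1.59-fold lower in the CCE library (1.53 to 1.65). CCND3, on chromosome 6 from 41902672 to 42018095, had 5272 counts (151.1 CPM) in the CCE library and 1123 (199.3 CPM) in the control library, 1.32-fold lower (1.24 to 1.41). Within each library, CCND1 had 2.48 counts for each CCND3 count in CCE cells and 2.99 in control cells. This ratio is free of library scaling and of gene length, and it was 0.830-fold in the CCE library (exact conditional interval 0.769 to 0.895), so the CCE-over-control ratio of CCND1 was below that of CCND3 by more than counting error, although CCND1 had more counts than CCND3 in both libraries. CCND2, on chromosome 12 from 4378937 to 4414519, had 23 counts (0.659 CPM) in the CCE library and 4 (0.710 CPM) in the control library, too few to compare (log2 ratio -0.11, -1.66 to 1.89).

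Of the kinases that D cyclins activate, CDK4 was lower and the interval of CDK6 spanned no difference. CDK4, on chromosome 12 from 58141510 to 58149796, had 6301 counts (180.6 CPM) in the CCE library and 1378 (244.6 CPM) in the control library, 1.35-fold lower (1.28 to 1.44). CDK6, on chromosome 7 from 92234235 to 92465887, had 2013 counts (57.7 CPM) in the CCE library and 308 (54.7 CPM) in the control library. Its log2 ratio of 0.08 had an interval from -0.10 to 0.26. The ratio of CDK6 to CDK4 counts was 0.319 in the CCE library and 0.224 in the control library, 1.43-fold higher in the CCE library (1.25 to 1.64). CDK4 shares 1369 exonic bases with TSPAN31 on the opposite strand, and whether reads were counted by strand is not stated. TSPAN31 had a log2 ratio of -0.08 (-0.19 to 0.03), and counts of both genes summed gave -0.29. That sum holds all TSPAN31 counts, not only those on shared bases. How far the CDK4 ratio depends on the assignment of shared reads was not tested. CCND1 shares 497 exonic bases with LTO1, which was at -0.59 (-0.69 to -0.49), and the summed counts of these 2 genes gave -0.65. CDK6-AS1, opposite CDK6, had 6 counts in the CCE library and 2 in the control library, and CCND2-AS1 had 0 in both. DINOL shares 146 exonic bases with CDKN1A on the opposite strand. DINOL and unnamed genes that overlap CDKN2C and CCND2 were not among the gene IDs counted. Whether their reads were counted to CDKN1A, CDKN2C or CCND2 was not tested. An unnamed gene opposite CCND3 had 0 counts in both libraries.

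**Figure D2:**
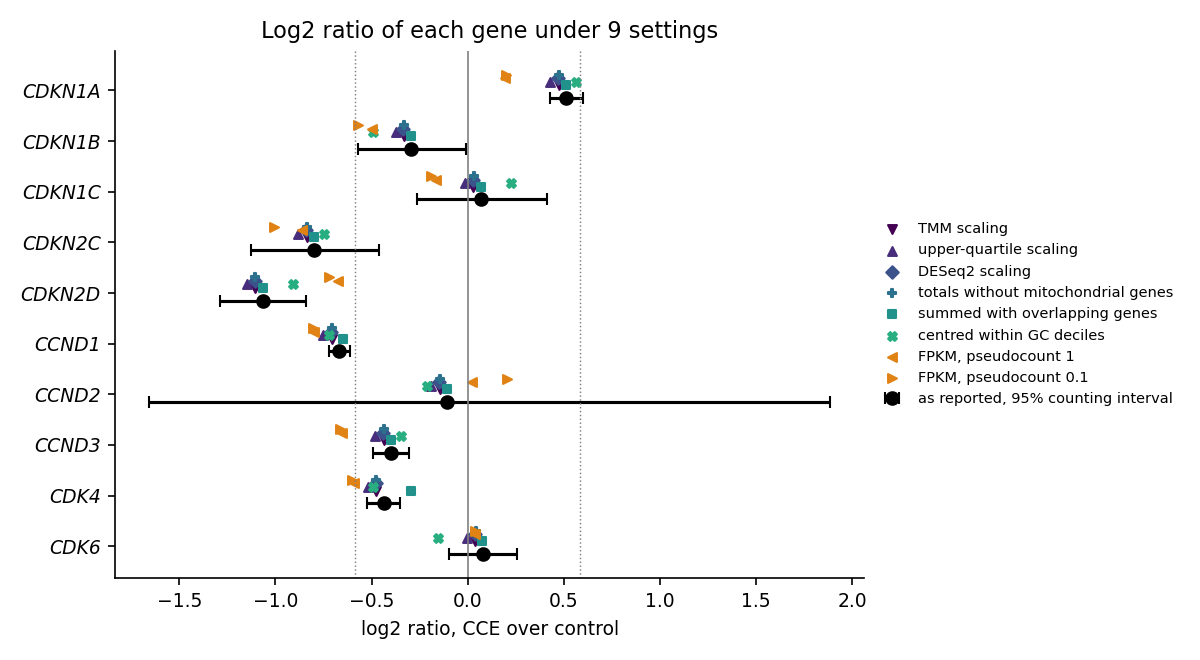
Log2 ratio, CCE over control, of the 10 genes (black points, with 95% counting intervals) and of the same genes under 8 other settings (coloured markers; orange, the authors' FPKM). Dotted lines mark 1.5-fold either way; CDKN1A lay above 0 and CDKN1B, CDKN2C, CDKN2D, CCND1, CCND3 and CDK4 lay below 0 under each setting drawn.

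9 pairs of genes were compared within libraries, since these ratios do not depend on scaling. CDKN1A had 0.801 counts for each CCND1 count in the CCE library and 0.353 in the control library, a 2.27-fold higher ratio (2.11 to 2.44), the largest of the 9. Against CDK4, CDKN1A had 1.66 counts per count in the CCE library and 0.859 in the control library, 1.93-fold higher (1.78 to 2.10). Against CDKN1B it had 16.3 and 9.32, in the CCE and control libraries in that order, 1.75-fold higher (1.42 to 2.14). From the authors' FPKM these 3 ratios were 2.01-fold, 1.74-fold and 1.71-fold higher. CCND1 against CDK6 was 0.596-fold (0.524 to 0.677) and CCND1 against CDK4 0.852-fold (0.794 to 0.914). The intervals of CCND3 against CDK4 (1.03-fold, 0.940 to 1.12) and of CDKN2D against CDKN2C (0.831-fold, 0.628 to 1.10) included 1. By FPKM these 2 pairs lay on the other side of 1, at 0.957-fold and 1.23-fold, and the other 4 pairs kept their side.

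Levels can be ordered between genes only per length, here as CPM per kb of merged exons. In the CCE library CDKN1A was first at 100.1 (98.2 to 102), then CCND1 at 78.7 (77.3 to 80.0), CDK4 at 58.4 and CCND3 at 26.2. In the control library CCND1 was first at 125 (121 to 129), then CDK4 at 79.1 (74.9 to 83.3), CDKN1A at 70.1 (66.2 to 74.3) and CCND3 at 34.6. CDKN1A was first in the CCE library and CCND1 first in the control library also with the length of the canonical transcript and by FPKM. The order and gaps below the first gene depend on the length used. In the control library CDKN1A and CCND3 stood at 99.3 and 98.4 per canonical kb, and at 77.7 and 79.1 FPKM. In the CCE library they stood at 89.1 and 49.8 FPKM, and CDK4 lay above CCND1 per canonical kb (96.8 and 88.4). Per kb of merged exons, CDKN2D followed CCND3, at 12.6 in the CCE library and 26.4 in the control library. CDKN1C, CDK6, CDKN2C and CDKN1B lay between 1.99 and 6.45 in the CCE library and between 2.44 and 6.16 in the control library. Their order depends on the length used: CDKN1B has 9255 bases of merged exons but 2411 in its canonical transcript, and CDK6 stood at 4.71 in the CCE library and 4.47 in the control library per merged kb but at 31.9 and 31.1 FPKM.

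By the same measure, CDKN1A made up 80.4% of the summed level of the 5 inhibitor genes in the CCE library and 63.2% in the control library. CDKN2D made up 10.1% in the CCE library and 23.8% in the control library, and CDKN2C 2.69% and 5.25%. The summed level of the 5 was 124.5 in the CCE library and 111 in the control library, so the total differed by 1.12-fold while its makeup differed more. The 3 CIP/KIP genes summed to 108.5 in the CCE library and 78.7 in the control library, and the 2 INK4 genes to 16.0 in the CCE library and 32.2 in the control library. The D cyclins summed to 105 in the CCE library and 159.7 in the control library, with CCND1 at 74.9% in the CCE library and 78.3% in the control library. The CCND1 share was smaller by canonical transcript length, at 54.2% in the CCE library and 58.8% in the control library. By FPKM it was 56.9% in the CCE library and 59.3% in the control library. Per kb of merged exons, CDK4 and CDK6 summed to 63.1 in the CCE library and 83.5 in the control library. By FPKM the 5 inhibitors summed to 113.8 in the CCE library and 115.9 in the control library, with CDKN1A at 78.3% in the CCE library and 67.0% in the control library.

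**Figure D3:**
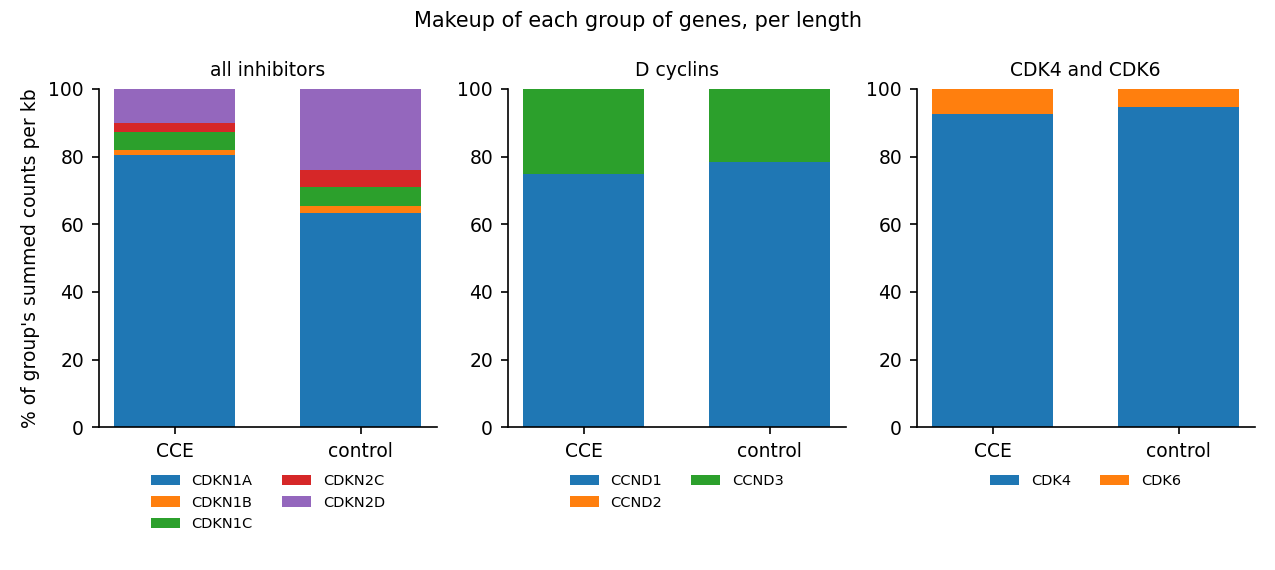
Share of each gene (percent) in the summed counts per kb of its group, in the CCE library (left bar) and the control library (right bar), for the 5 inhibitors, the D cyclins and the 2 kinases. CDKN1A fills 80.4% of the inhibitor bar in the CCE library and 63.2% in the control library. The other 2 groups differ less in makeup by the measure drawn. By FPKM, not drawn, CDK4 made up 62.4% of the 2 kinases in the CCE library and 72.1% in the control library.

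The genes that act next to these 10 were described by 5 lists. The first list held E and A cyclins, CDK2 and the CDK-activating kinase, with a median log2 ratio of -0.07. Of its 7 measured genes, 2 were at least 1.5-fold lower (9.9% of protein-coding genes) and 0 higher (13.1%). They were CCNA2, the cyclin of S phase, at -0.87 (-0.99 to -0.74), and CDK2, the kinase that CIP/KIP proteins inhibit, at -0.65 (-0.85 to -0.44). CCNE1, the gene of cyclin E1, had 0.15 (-0.14 to 0.46) by counts and -2.16 by log2(FPKM + 1). In the list of the RB family and E2F partners, 2 of 10 were lower (9.9% of protein-coding genes) and 2 higher (13.1%). The median of that list was -0.13. The activator genes E2F1 and E2F2 had -0.80 (-0.97 to -0.62) and -1.76 (-2.39 to -1.12), whereas E2F3 had 0.64 (0.49 to 0.79) and TFDP2, which encodes a dimer partner of E2F, 0.60 (0.20 to 1.03; -1.88 by log2(FPKM + 1)). TFDP1, another dimer partner, had -0.56, and was the most abundant of the list per length in the control library but not in the CCE library. RB1, the gene of the retinoblastoma protein, had -0.18.

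Ubiquitin ligases set the protein levels of p21, p27 and the D cyclins. Of 14 measured genes on that list 1 was at least 1.5-fold lower (9.9% of protein-coding genes) and 1 higher (13.1%), with a median log2 ratio of 0.12. CKS1B, the cofactor with which the SKP2 ligase recognises p27, was 74.1 CPM in the CCE library and 149.5 CPM in the control library, a log2 ratio of -1.01 (-1.13 to -0.90), and SKP2 itself had -0.06 (-0.47 to 0.38) by counts, while its FPKM was 2.75 in the CCE library and listed at 0 in the control library. AMBRA1, the adaptor of a ligase that degrades D cyclins, had 25.5 CPM in the CCE library and 15.3 CPM in the control library, 0.74 (0.42 to 1.08), but -0.13 by log2(FPKM + 1). Among 5 folding and assembly partners of CDK4 and CDK6, HSP90AA1, a chaperone of both kinases, had 0.75 (0.72 to 0.78) by counts and -4.32 by log2(FPKM + 1). 1 of the 5 was past 1.5-fold, on the higher side (13.1% of protein-coding genes), and the list median was 0.03. HSP90AB1, the most abundant per length, had 0.41 and CDC37, the kinase-specific cochaperone, -0.12.

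Transcription factors known to act at CIP/KIP and D cyclin promoters were mostly within 1.5-fold (median log2 ratio 0.07). Of 19 measured, 2 were lower (9.9% of protein-coding genes) and 0 higher (13.1%). KLF6, a zinc finger factor, had -0.66 (-0.75 to -0.56) and JUN, an AP-1 subunit, -0.64 (-0.82 to -0.46). FOSL1, another AP-1 subunit and the most abundant of the list per length, had -0.24. MYC, which encodes a repressor of CDKN1A, had 0.43.

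**Figure D4:**
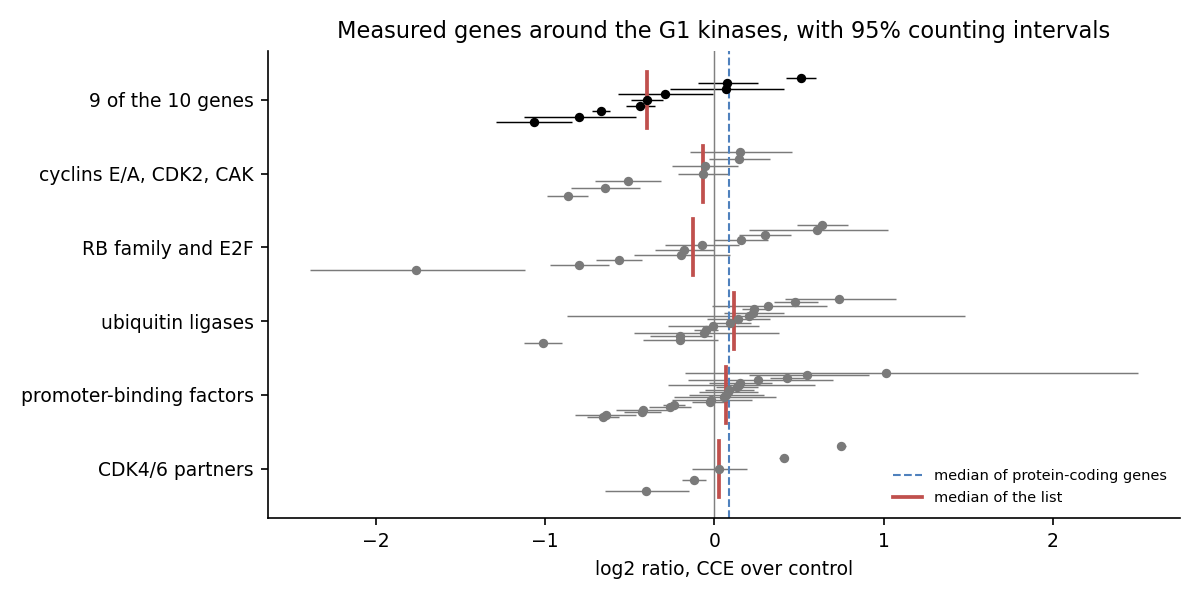
Log2 ratio, CCE over control, with 95% counting intervals, of the measured genes among the 10 (black) and of 5 lists of related genes (grey); red bars mark list medians and the dashed blue line the median of measured protein-coding genes (0.09). The median of the 9 measured genes (-0.40) lies left of the other medians, which run from -0.13 to 0.12.

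Log2 ratios varied with the exonic GC content of the genes, and the share of mitochondrial counts differed between the libraries. The median log2 ratio of protein-coding genes was 0.22 in the decile of genes lowest in GC and -0.16 in the decile highest in GC. CDKN1C and CDKN2D fall in the highest decile, and CDKN1A, CDKN2C and CCND3 in the next. Less the median of its own decile, CDKN2D had -0.91, CDKN2C -0.75, CCND1 -0.72 and CDKN1A 0.56, so each kept its side of 0. CDK6, in the next to lowest decile, had -0.16 and CDKN1B -0.49 on that scale. Genes of the mitochondrial genome took 8.20% of counts in the CCE library and 10.5% in the control library. With totals taken without them, CDKN1A had 0.48 and CDKN2D -1.10.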

How the data were processed

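Per the labels, each group had 1 library, and groups were taken from the treatment label of each sample, since the treatment protocol is the same text for both. The authors deposited raw counts per Ensembl gene and FPKM values. Per the submitters' processing notes, the aligner was HISAT2 and the builds were GRCh37 and hg19. The programs used for counting and for FPKM, the annotation and the use of strand are not stated. The 5 rows that name no gene (66.8% of records in the CCE library and 62.9% in the control library) were left out. FPKM rows, 215170 per library, were summed per gene, and the depth behind them is unknown.

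Symbols, exons and coordinates came from GENCODE 44 lifted to GRCh37, which matched 55665 of 63677 IDs. Promoters came from RefSeq on GRCh38.p14. Counts were scaled to the total on genes. Log2 ratios carried no pseudocount. Intervals were computed with scipy 1.17.1 in Python 3.11.15. They were tested on simulated Poisson counts only, which hold no spread between cultures and no PCR copies. Alternatives used edgeR 4.0.16 and DESeq2 1.42.0 scaling in R 4.3.3, FPKM with pseudocounts of 1 and 0.1, count filters, overlapping genes summed, and centring within deciles of GC content. Use of canonical transcript lengths was added after seeing the data.

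The 10 genes and the 10 lists of other genes (74 of 75 genes matched) were chosen with earlier results of these data known. Named genes were the 10, up to 4 genes past 1.5-fold per list with its most abundant gene per length, markers, and genes overlapping a member's exons. CCNE1, RB1, SKP2, CDC37 and MYC were chosen after their values were seen. A few of the listed items are not reported here.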

Additional observations from a re-analysis of the deposited data

How the results depend on the processing

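By counts, the log2 ratios of CDKN1A (0.43 to 0.56), CDKN1B (-0.49 to -0.29), CDKN2C (-0.88 to -0.75), CDKN2D (-1.15 to -0.91), CCND1 (-0.75 to -0.65), CCND3 (-0.48 to -0.35) and CDK4 (-0.52 to -0.29) kept their sign under all 6 other count settings. CDKN1C (-0.02 to 0.23) and CDK6 (-0.16 to 0.07) did not. The scalings and the totals without mitochondrial genes shift every gene alike, by at most 0.08, so they could not turn the sign of larger ratios. Summing overlapping genes left CDKN1A, CDKN1B, CDKN2C, CDKN2D and CCND3 at their reported ratios. By FPKM (pseudocount 1), CDKN1A had 0.20 and CDKN1C -0.17, and CCND2 was listed at 0 in the control library. The number of the 9 genes at least 1.5-fold lower was 5 by FPKM at either pseudocount, with CCND3 and CDK4 added, and 1 at the 2-fold threshold. Their median was -0.29 with overlapping genes summed, and -0.59 and -0.60 by FPKM at pseudocounts of 1 and 0.1. Over protein-coding genes, the calls were 2499 higher and 3002 lower by FPKM at a pseudocount of 1, 3106 and 3420 at 0.1, and 423 and 457 at the 2-fold threshold. The FPKM values carry no interval, so more genes can pass. The cause of the other differences was not tested. Scaling moved the median of protein-coding genes by at most 0.08 on the log2 scale. No paired analysis was possible because each group has 1 library, and no library could be left out. The shallower control library limits precision, most for CCND2.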
